A study of Mus musculus with 6 samples.

Results

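UDP-glucuronosyltransferases (UGTs) and cytosolic sulfotransferases (SULTs) were followed in the jejunum of irradiated mice as 10 genes, the UGTs Ugt1a1, Ugt2a3, Ugt2b5, Ugt2b34, Ugt2b35 and Ugt2b36 and the SULTs Sult1a1, Sult1b1, Sult1d1 and Sult2b1. They were taken as every probe that the platform annotation assigns to these genes under a current or an earlier symbol, which gave 16 of the 45281 probes of the array and 10 of its 19057 named genes. The samples were jejunum total RNA of 6 male C57BL/6J mice aged 8 weeks, 1 Illumina Mouse WG-6 array per mouse. All of them had received 9 Gy total-body irradiation (TBI) and, immediately afterwards, 100 µl of a 0.1 mM protein solution by intraperitoneal injection, and tissue was taken 12 h later. In 3 mice the protein was EGFP, a green fluorescent protein that served as the control. In the other 3 it was NeuroD-EGFP, a recombinant fusion of EGFP to NeuroD, a transcription factor of the basic helix-loop-helix class that carries its own protein transduction domain. Every mouse was irradiated, so the comparison is between proteins after irradiation, and unirradiated mice were not analysed here. The mouse is the replicate.

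UGTs sit in the membrane of the endoplasmic reticulum and join glucuronic acid, taken from UDP-glucuronic acid, to bilirubin, steroids, bile acids and drugs. SULTs work in the cytosol and transfer sulfate from the donor PAPS to phenols, catecholamines, thyroid hormones and sterols. Both reactions make their substrates soluble enough to be exported, and the enterocytes of the small intestine carry them out on compounds that arrive with food or bile before these reach the liver.

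The 7 genes on chromosome 5 lie in a single stretch with their relatives, in the RefSeq order Ugt2b34, Ugt2b1, Ugt2b35, Ugt2b36, Ugt2b5, Ugt2b37, Ugt2a3, Ugt2b38, Ugt2a1, Ugt2a2, Sult1b1, Sult1d1 and Sult1e1. Ugt1a1 lies on chromosome 1, and Sult1a1 and Sult2b1 lie on chromosome 7. NeuroD binds E-boxes, whose letters are CANNTG, a motif that reads the same on both strands. The promoter windows of the 3 genes on which the values below turn are shown here, from RefSeq on GRCm38.p6, each running from 250 bases before the start site to 50 after it, 5′ to 3′ on the strand of the gene, with E-boxes in capitals. Ugt2a3 (chr5:87337146-87337445, minus strand) had the widest spread between mice, Sult1a1 (chr7:126676369-126676668, minus strand) the lowest p-value, and Sult2b1 (chr7:45759563-45759862 and chr7:45742429-45742728, minus strand) has 2 start sites in the table.
Ugt2a3: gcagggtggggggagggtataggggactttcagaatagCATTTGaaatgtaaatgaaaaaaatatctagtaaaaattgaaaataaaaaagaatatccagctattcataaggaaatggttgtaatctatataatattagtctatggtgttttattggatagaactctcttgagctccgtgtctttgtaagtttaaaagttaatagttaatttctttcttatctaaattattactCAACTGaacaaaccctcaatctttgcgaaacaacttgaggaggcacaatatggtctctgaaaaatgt
Sult1a1: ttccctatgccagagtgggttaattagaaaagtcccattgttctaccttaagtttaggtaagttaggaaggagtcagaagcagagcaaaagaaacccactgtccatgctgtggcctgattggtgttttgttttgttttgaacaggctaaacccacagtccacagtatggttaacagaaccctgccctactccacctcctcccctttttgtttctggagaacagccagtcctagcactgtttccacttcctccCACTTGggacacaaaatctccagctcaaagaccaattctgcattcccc
Sult2b1 window 1: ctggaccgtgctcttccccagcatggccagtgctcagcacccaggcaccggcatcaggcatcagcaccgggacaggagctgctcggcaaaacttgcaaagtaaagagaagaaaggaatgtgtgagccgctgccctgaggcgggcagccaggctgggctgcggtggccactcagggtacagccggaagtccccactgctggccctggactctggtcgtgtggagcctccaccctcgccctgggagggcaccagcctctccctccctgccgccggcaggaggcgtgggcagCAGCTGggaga
Sult2b1 window 2: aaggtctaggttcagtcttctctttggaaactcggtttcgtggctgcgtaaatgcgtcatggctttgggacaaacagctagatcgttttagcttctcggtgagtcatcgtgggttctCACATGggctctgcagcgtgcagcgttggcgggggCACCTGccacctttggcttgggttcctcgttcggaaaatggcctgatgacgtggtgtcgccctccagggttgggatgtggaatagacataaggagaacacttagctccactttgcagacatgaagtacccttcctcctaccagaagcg
The Ugt2a3 window holds 2 E-boxes, CATTTG and CAACTG, that of Sult1a1 holds 1, CACTTG, and those of Sult2b1 hold 1 and 2. All 10 genes had at least 1 window, 12 in all, and 9 of these, from 8 genes, held an E-box, against 72.3% of all 32851 promoter windows of the same length. Most windows of any gene thus hold an E-box. The HNF1 half-site GTTAAT, searched on both strands, was in 4 windows, those of Ugt1a1, Ugt2a3, Sult1a1 and Sult1d1, and in 7.1% of all windows. A longer HNF1 consensus, searched before the half-site, was in 2 of these, Ugt1a1 and Sult1d1, and in 0.399% of all windows. The HNF4 motif CAAAGTCCA was in a Sult1b1 window and in 0.475% of all windows, and the CDX motif TTTAT was in 6 of the 12 windows and in 40.0% of all windows. These are matches of letters only, and the motifs were chosen with the values known.

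The array reads each transcript by oligonucleotide probes on beads, and values are given as normalized log2 intensity, or as the deposited background-subtracted intensity where so named. A detection p-value under 0.05 was read as detection. The test, by limma, took in the 19099 probes that reached it on 3 arrays or more, and p-values were adjusted over all of them by the Benjamini-Hochberg method. Of the 16 UGT and SULT probes, 14 passed, which left 9 of the 10 genes with a test, each given by its brightest tested probe, and none of these probes passed through 1 group alone. Ugt2b5 did not pass, and a second probe of Ugt2a3 did not. Between 18271 and 20408 probes were detected per array, the 75th percentile of the intensity ran from 80.3 to 122, and the number of arrays limits the precision. All differences are NeuroD-EGFP minus EGFP on the log2 scale, given with the standard error (SE) from limma. In this bulk tissue, fewer cells of a type and less RNA per cell cannot be told apart.

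EGFP mouse 3 stood apart from the other 5 mice in genes that mark position along the small intestine. Lct, the lactase of the proximal and middle small intestine, had an intensity of -14.8 in it and of 5522 to 8520 in the others, and Gata4 and Onecut2, transcription factors of the proximal small intestine, were detected in the other 5 mice but not in EGFP mouse 3. Fabp6, the bile acid binder of ileal enterocytes, had an intensity of 18911 in EGFP mouse 3 and at most 36.5 elsewhere. Slc10a2, the ileal bile acid transporter, was detected on no array, EGFP mouse 3 included (intensity 17.9). Vil1, the villin of the brush border, lay between 13.45 and 13.83 in all 6 mice. The epithelium was thus measured in every mouse, while in EGFP mouse 3 Lct, Gata4, Onecut2 and Fabp6 go against the jejunum label and Slc10a2 does not. Its part in the results was not tested, and values without it stand beside those of all mice.

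With all 6 mice, none of the 9 tested genes differed between NeuroD-EGFP and EGFP at an adjusted p under 0.05. Ugt1a1, Ugt2b34, Ugt2b35, Ugt2b36, Sult1a1 and Sult1d1 had lower means with NeuroD-EGFP, and Ugt2a3, Sult1b1 and Sult2b1 had higher ones, 6 lower and 3 higher beside 49.2% and 50.8% of all genes. In the authors' log2 values, which are not scaled between arrays and put the median of all genes at -0.27, Sult1b1 (-0.25) and Sult2b1 (-0.06) turned below 0. The smallest adjusted p among them was 0.917 (limma), and the smallest of all genes was 0.405. At an unadjusted p under 0.05 limma called 1 of the 9 lower, Sult1a1, and 0 higher, where 2.56% of all 10777 tested genes were called lower and 2.2% higher, with 0% called after adjustment in either direction. The 3 mice of each group did not overlap in Sult1a1, which was lower, and in Sult2b1, which was higher, while 5.93% of all genes were lower and 5.44% higher without overlap. The median log2 fold change of the 9 genes was -0.20, against 0.0047 for all genes.

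Without EGFP mouse 3 the same genes looked different. The median of the 9 genes was then -0.45, against 0.010 for all genes, and 8 of the 9 had a lower mean with NeuroD-EGFP, where 48.3% of all genes did and 51.7% had a higher one. Ugt2a3, Ugt2b34, Ugt2b35 and Ugt2b36 were lower at an unadjusted p under 0.05 from limma, 4 of the 9, beside 6.71% of all genes. In 7 of the 9 the remaining groups did not overlap with NeuroD-EGFP lower, beside 15.7% of all genes. None passed an adjusted p of 0.05, which 14 genes of the array passed as higher (0.13%) and 2 as lower (0.0186%). EGFP mouse 3 was the lowest of the 6 mice in 5 of the 9 genes, and the lowest in 23.7% of all genes. EGFP mouse 1 was the highest in 5 of the 9 genes, and the highest in 19.0% of all genes. The median of the 9 genes lay nearer 0 without EGFP mouse 1 (-0.04) or EGFP mouse 2 (-0.06). It was -0.24, -0.08 and -0.17 without NeuroD-EGFP mouse 1, 2 and 3, so its size depended on which mouse was left out.

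**Figure D1:**
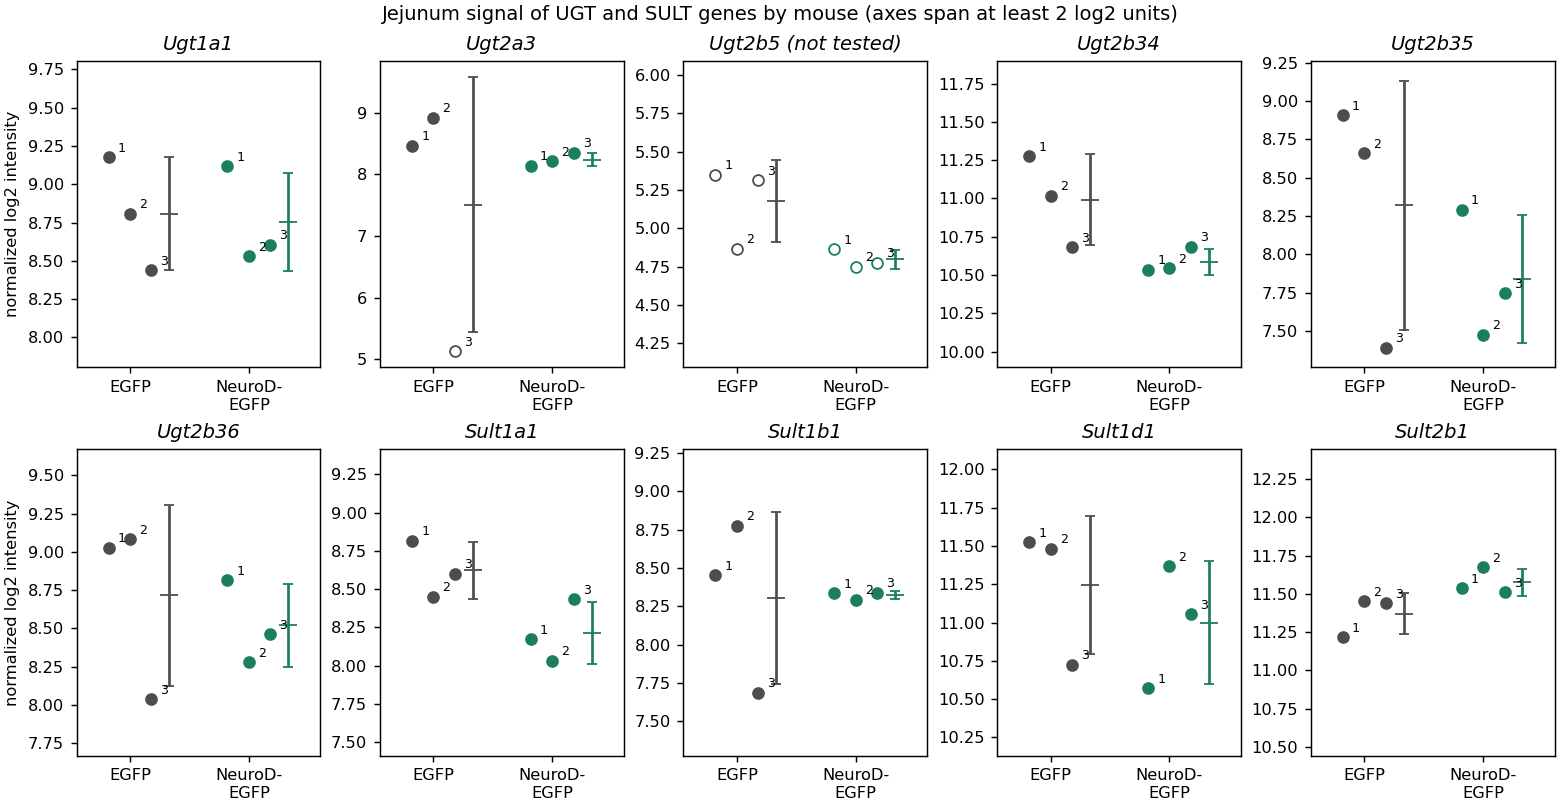
Normalized log2 intensity of the 10 UGT and SULT genes in each mouse (circles, numbered by mouse; open where not detected), with the mean and SD of each group of 3 beside them; each panel has its own axis. EGFP mouse 3 lies at 5.14 in Ugt2a3 against 8.14 to 8.92 in the other mice, and the groups are separate among the tested genes in Sult1a1 (lower with NeuroD-EGFP) and Sult2b1 (higher, but -0.06 in the authors' unscaled log2 values).

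Among the UGTs, Ugt1a1, the enzyme that glucuronidates bilirubin, was detected in all 6 mice. Its log2 intensity was 9.18, 8.81 and 8.44 in EGFP mice 1 to 3 and 9.12, 8.53 and 8.61 in NeuroD-EGFP mice 1 to 3. Mouse 1 was the highest of each group, and the groups overlapped over most of their range. Its log2 fold change was -0.06 (SE 0.24, adjusted p = 0.991, limma), with a 95% interval of -0.63 to 0.52, and without EGFP mouse 3 it was -0.24 (SE 0.23). The first exons of the Ugt1a genes are spliced to exons that all of them share, and which exon this probe reads is not given in the sources used here, so its signal may include other Ugt1a transcripts.

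Ugt2a3, an enzyme of the UGT2A group whose human counterpart glucuronidates bile acids, had the widest spread of the 9 genes. Its log2 intensity was 8.47, 8.92 and 5.14 in EGFP mice 1 to 3 and 8.14, 8.22 and 8.36 in NeuroD-EGFP mice 1 to 3, and the deposited intensities were 413, 491 and 13.4 against 259, 256 and 262. It was detected in 2 of the 3 EGFP mice and in all NeuroD-EGFP mice. The other 5 mice thus lay close together and EGFP mouse 3 was below detection, a range of 3.78 that was wider than in 99.5% of all tested genes. The difference was 0.73 (SE 0.90, adjusted p = 0.954, limma) with all mice and -0.45 (SE 0.18, adjusted p = 0.343, limma) without EGFP mouse 3, so 1 mouse set its direction. The second probe of Ugt2a3 was detected in EGFP mouse 2 only and was not tested.

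The genes whose values over the 6 mice lay closest to those of Ugt2a3, after each was centred on its mean, were Acot12, Prxl2a, Hsd17b6, Casp6 and Slc2a2, with root mean square differences of 0.10, 0.19, 0.19, 0.21 and 0.22. Acot12, a cytosolic acetyl-CoA hydrolase, had 8.12, 8.80 and 4.87 with EGFP and 7.74, 7.89 and 8.21 with NeuroD-EGFP. Slc2a2, the glucose transporter GLUT2, had 12.51, 12.54 and 9.41 against 12.07, 12.32 and 12.12. Each of the 5 was lowest in EGFP mouse 3, as is likely for genes picked for their closeness to Ugt2a3. Among the UGT and SULT genes themselves the nearest to Ugt2a3 was Sult1b1, at 0.95, while the closest pairs were Ugt2b34 with Sult1a1 (0.17), Ugt2b36 with Sult1b1 (0.20), and Ugt2b36 with Ugt1a1 and with Ugt2b35 (0.22 each).

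**Figure D2:**
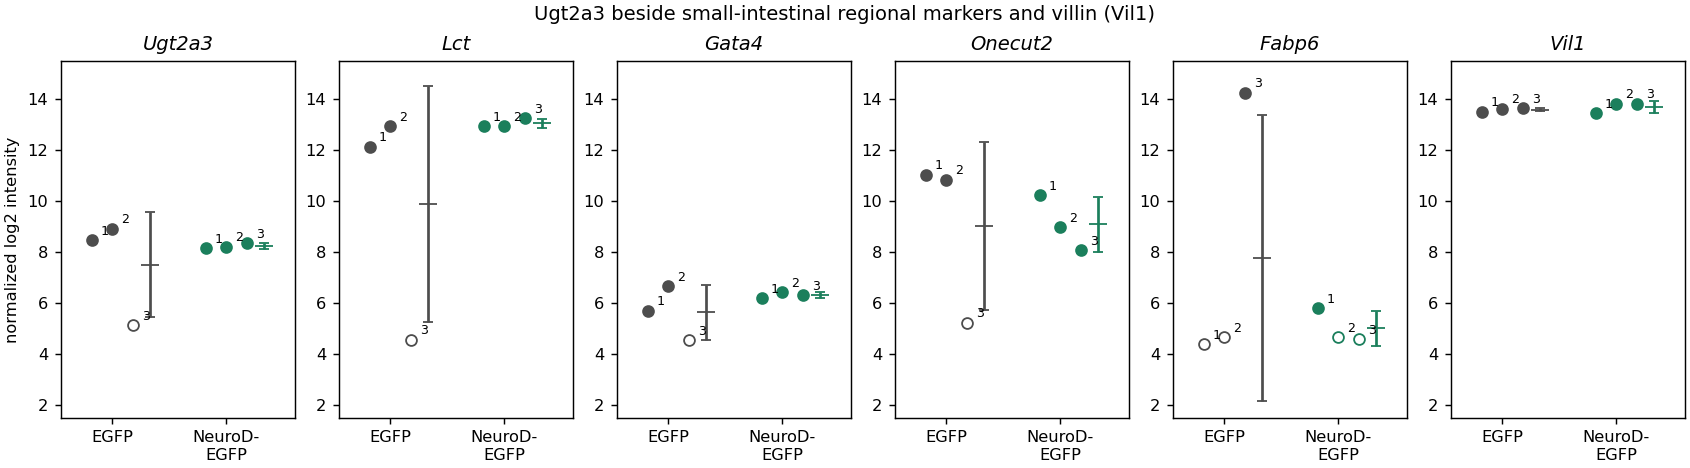
Normalized log2 intensity of Ugt2a3, of Lct, Gata4 and Onecut2 (proximal and middle small intestine), of Fabp6 (ileum) and of Vil1 in each mouse (open circles, not detected), with the mean and SD of each group of 3. EGFP mouse 3 is lowest in Ugt2a3 (5.14), Lct (4.56), Gata4 (4.53) and Onecut2 (5.23) and highest in Fabp6 (14.26), while Vil1 lies between 13.45 and 13.83 in all mice.

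The Ugt2b genes encode enzymes that glucuronidate steroids, bile acids, fatty acids and drugs. Ugt2b34 had log2 intensities of 11.28, 11.02 and 10.68 in EGFP mice 1 to 3 and 10.53, 10.54 and 10.69 in NeuroD-EGFP mice 1 to 3. Only EGFP mouse 3 lay within the NeuroD-EGFP range, by under 0.01. This gave a log2 fold change of -0.40 (SE 0.18, unadjusted p = 0.0607, adjusted p = 0.917, limma), and without EGFP mouse 3 it was -0.56 (SE 0.15, unadjusted p = 0.00828, adjusted p = 0.210, limma). Ugt2b35 had 8.91, 8.66 and 7.39 against 8.29, 7.48 and 7.75. EGFP mice 1 and 2 were above every NeuroD-EGFP mouse and EGFP mouse 3 was below all of them. Its log2 fold change was -0.48 (SE 0.41, adjusted p = 0.934, limma) with all mice and -0.94 (SE 0.25, unadjusted p = 0.00763, adjusted p = 0.207, limma) without EGFP mouse 3.

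Ugt2b36 had 9.03, 9.08 and 8.04 with EGFP and 8.82, 8.28 and 8.46 with NeuroD-EGFP. The pattern was that of Ugt2b35, with EGFP mice 1 and 2 on top and EGFP mouse 3 at the bottom. The log2 fold change was -0.20 (SE 0.31) with all mice and -0.53 (SE 0.19, unadjusted p = 0.0263, adjusted p = 0.296, limma) without EGFP mouse 3, and a second probe gave -0.17 (SE 0.18) and -0.28 (SE 0.18), with groups that overlapped both times. Ugt2b5 was detected on 0 of 6 arrays, with intensities of 32.0, 2.27 and 20.1 with EGFP and 1.85, -3.24 and -2.17 with NeuroD-EGFP, so no fold is given. The Ugt2b transcripts are close relatives, and how far a probe for one of them also reads another was not tested.

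Among the SULTs, Sult1a1, which sulfates phenols, gave the lowest unadjusted p of the 9 genes. Its log2 intensity was 8.82, 8.45 and 8.60 in EGFP mice 1 to 3 and 8.17, 8.03 and 8.43 in NeuroD-EGFP mice 1 to 3, with means of 8.62 ± 0.18 (SD, n = 3) and 8.21 ± 0.20 (SD, n = 3). Every NeuroD-EGFP mouse lay below every EGFP mouse, with a gap of only 0.02 between NeuroD-EGFP mouse 3 at 8.43 and EGFP mouse 2 at 8.45. The level with NeuroD-EGFP was 0.753 of that with EGFP, a log2 fold change of -0.41 (SE 0.17, unadjusted p = 0.0472, adjusted p = 0.917, limma). An exact permutation test of 3 mice against 3 cannot go below p = 0.1, two-sided. EGFP mouse 3 lay inside its group here, and without it the log2 fold change was -0.42 (SE 0.19, unadjusted p = 0.0629, limma). The unadjusted p from limma was also above 0.05 without the first EGFP mouse (0.136), the first NeuroD-EGFP mouse (0.114) and the second one (0.161).

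The genes closest to Sult1a1 over the 6 mice were Gabpb1, Slc20a1, Smarcal1, Fubp1 and Ttc30b, with root mean square differences of 0.05, 0.06, 0.07, 0.07 and 0.07. Gabpb1, a subunit of the transcription factor GABP, had 6.74, 6.28 and 6.39 with EGFP and 6.05, 5.83 and 6.27 with NeuroD-EGFP. Slc20a1, a phosphate transporter, had 6.85, 6.42 and 6.51 against 6.14, 6.06 and 6.54. In both, EGFP mouse 1 was the highest and NeuroD-EGFP mouse 2 the lowest, as in Sult1a1, a likeness for which they were picked.

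Sult1b1, which sulfates thyroid hormones and small phenols, had 8.45, 8.78 and 7.69 in EGFP mice 1 to 3 and 8.34, 8.29 and 8.34 in NeuroD-EGFP mice 1 to 3. The NeuroD-EGFP mice lay within 0.05 of each other and inside the range of the EGFP mice, of which the third was the lowest. Its log2 fold change was 0.02 (SE 0.27, 95% interval -0.62 to 0.66, adjusted p = 0.997, limma), and -0.29 (SE 0.15, adjusted p = 0.465, limma) without EGFP mouse 3. A second probe, detected on 5 arrays, gave 0.12 (SE 0.28) and -0.02 (SE 0.29).

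Sult1d1, which sulfates catecholamines in mice, had 11.52, 11.48 and 10.72 with EGFP and 10.57, 11.37 and 11.05 with NeuroD-EGFP. EGFP mice 1 and 2 were the 2 highest of the 6, and EGFP mouse 3 lay among the NeuroD-EGFP mice. The difference was -0.24 (SE 0.29, adjusted p = 0.952, limma) with all mice and -0.50 (SE 0.24, unadjusted p = 0.0738, limma) without EGFP mouse 3. Its second probe gave -0.05 (SE 0.25) and -0.34 (SE 0.14, unadjusted p = 0.0502, limma), so the differences of both probes lay further below 0 without that mouse.

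Sult2b1, which sulfates cholesterol and other sterols, was the only SULT gene whose mean stayed higher with NeuroD-EGFP with and without EGFP mouse 3, though not in the authors' unscaled log2 values. Its log2 intensity was 11.22, 11.45 and 11.44 in EGFP mice 1 to 3 and 11.54, 11.67 and 11.51 in NeuroD-EGFP mice 1 to 3, so that every NeuroD-EGFP mouse lay above every EGFP mouse. This gave a log2 fold change of 0.20 (SE 0.14, 95% interval -0.13 to 0.54, adjusted p = 0.928, limma) and 0.24 (SE 0.15) without EGFP mouse 3. In the authors' unscaled log2 values it was -0.06, above the median of all genes there. Of its other probes, one gave 0.04 (SE 0.14) and 0.03 (SE 0.15) without that mouse, and the other 0.28 (SE 0.18) and 0.38 (SE 0.18), all with overlapping groups.

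**Figure D3:**
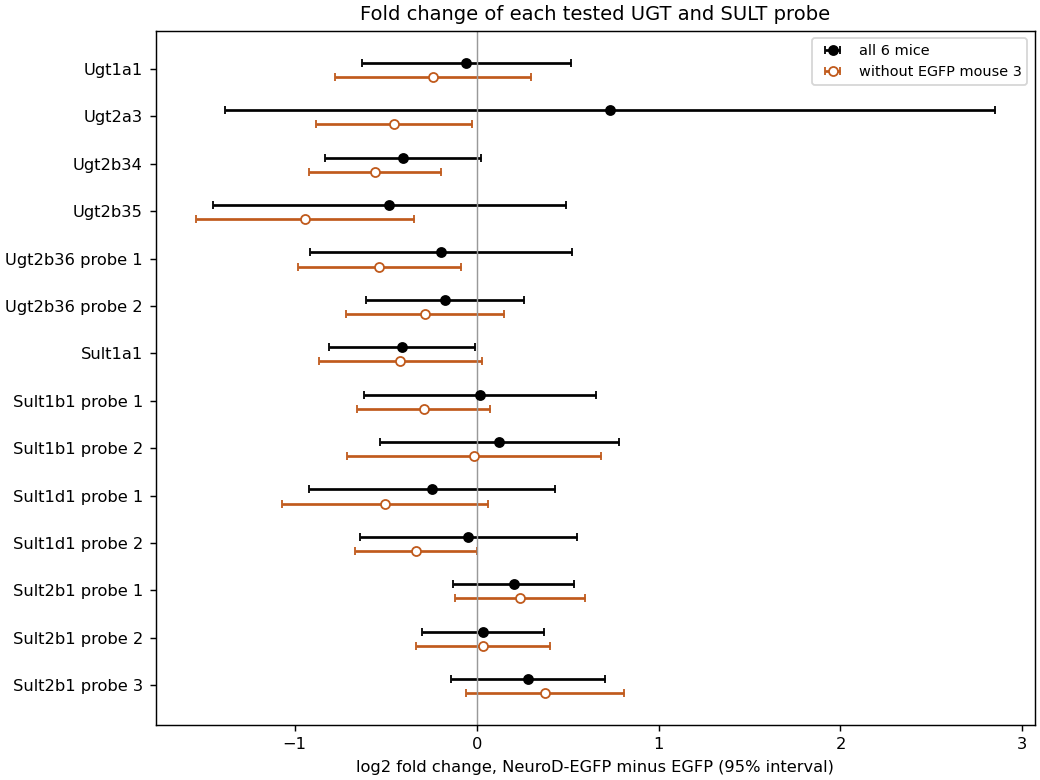
Log2 fold change, NeuroD-EGFP minus EGFP, with its 95% interval from limma, for the 14 tested UGT and SULT probes, with all 6 mice (filled) and without EGFP mouse 3 (open). Ugt2a3 moves from 0.73 to -0.45 when that mouse is left out, the Ugt2b probes move further below 0, and Sult1a1 (-0.41 and -0.42) and the first Sult2b1 probe (0.20 and 0.24) hardly move.

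Markers of other cell types were read beside these values. In lists not detailed, higher means with NeuroD-EGFP were counted with all mice and without EGFP mouse 3, beside 50.8% and 51.7% of all genes. They were 0 and 2 of 6 crypt, 5 and 4 of 6 villus tip and 5 and 7 of 7 goblet cell markers. Enteroendocrine cells had 4 and 3 of 7, and B and plasma cells 1 and 1 of 3. Neutrophils and macrophages had 5 and 6 of 7. The 1 tested pancreatic acinar marker was lower both times. Of 5 tested smooth muscle markers, 5 had higher means with NeuroD-EGFP, beside 50.8% of all genes. Their median log2 fold change was 0.20, with none at an unadjusted p under 0.05 (limma). Without EGFP mouse 3 the median was 0.77 and all 5 were higher at an unadjusted p under 0.05 (limma), beside 7.26% of all genes. Their mean log2 signal was 9.78, 9.61 and 11.36 with EGFP and between 10.38 and 10.54 with NeuroD-EGFP, and Cnn1 was detected on 1 array and was not tested. Of 7 tested T and NK cell markers, 7 had lower means with NeuroD-EGFP, beside 49.2% of all genes, with a median of -0.49. At an unadjusted p under 0.05 (limma) 1 was lower, Cd6, whose probe was not detected in NeuroD-EGFP mouse 3. Without EGFP mouse 3 the median was -0.72, 4 of the 7 were lower at that threshold beside 6.71% of all genes, and in 6 the groups did not overlap beside 15.7%. Their mean signal ran from 6.73 to 7.74 with EGFP and from 6.37 to 7.20 with NeuroD-EGFP, and Cd8a was detected on no array. Of the 13 tested enterocyte markers, 11 had higher means with all mice and 9 without EGFP mouse 3, beside 50.8% and 51.7% of all genes. Their median was 0.34 with all mice and 0.08 without that mouse. Without it, 1 of them, Slc15a1 (0.72), was higher and 2 were lower at an unadjusted p under 0.05 (limma), beside 7.26% and 6.71% of all genes. The lower ones were Slc2a2 (-0.36) and Alpi, the intestinal alkaline phosphatase. Alpi moved from -0.68 (SE 0.62) to -1.48 (SE 0.14, adjusted p = 0.0237, limma), one of the 2 genes of the array lower after adjustment. The mean signal of the 13 markers was 12.57, 12.81 and 11.15 with EGFP and 12.60 to 12.76 with NeuroD-EGFP.

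Of the 5 tested Paneth cell markers, 4 had higher means with and without EGFP mouse 3, beside 50.8% and 51.7% of all genes. Lyz1 was lower, at -0.18 with and without that mouse, and its groups did not overlap either time. The median of the 5 was 0.46, and 0.73 without EGFP mouse 3. Then 3 were higher at an unadjusted p under 0.05 (limma), beside 7.26% of all genes. After adjustment 2 were, Ang4 (1.58) and Mmp7 (1.39), beside 0.13%. The mean signal of the 5 markers was 12.41, 12.42 and 13.31 with EGFP and 13.09 to 13.17 with NeuroD-EGFP. All 4 tested markers of mesothelium and mesenteric fat had higher means, beside 50.8% of all genes, with a median of 0.52, and of 1.04 without EGFP mouse 3. Upk3b, a mesothelial uroplakin, had a log2 fold change of 1.26 (unadjusted p = 0.00651, adjusted p = 0.912, limma) with all mice. It was detected in all 3 NeuroD-EGFP mice but not in EGFP mouse 1, and the NeuroD-EGFP mice alone would have carried it through the filter, which favours a difference. The mean signal of the 4 markers ran from 5.29 to 6.57 with EGFP and from 5.99 to 6.68 with NeuroD-EGFP. The mean log2 signal of the 9 UGT and SULT genes was 9.65, 9.63 and 8.68 with EGFP and 9.28, 9.16 and 9.24 with NeuroD-EGFP. As UGTs and SULTs are also abundant in liver, hepatocyte markers were read too. Alb was detected in EGFP mouse 1 only and Tat and Fgb in no mouse. Of the 5 tested hepatocyte markers, Ahsg was detected in every EGFP mouse and in no NeuroD-EGFP mouse. It thus passed the filter through the EGFP mice alone, which favours a lower mean, and its p-value is not given. The others had log2 fold changes of -0.12 (Ttr), -0.21 (Apoa2), -0.36 (Serpina1a) and -0.13 (Cyp2e1) with all mice. Without EGFP mouse 3 these were -0.13 for Ttr, -0.71 for Apoa2 (unadjusted p = 0.00915, adjusted p = 0.214, limma), -0.18 for Serpina1a and 0.75 for Cyp2e1. Serpina1a and Cyp2e1 were each detected on 3 arrays, EGFP mouse 3 among them. Without that mouse no EGFP mouse detected Cyp2e1, so its value depends on the background floor and favours a higher mean. The mean signal of the 5 markers ran from 6.24 to 6.55 with EGFP and from 6.01 to 6.30 with NeuroD-EGFP. The part of these cell types in the UGT and SULT values was not tested.

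Other genes of the same pathways were read from lists of donors, transporters and relatives. Of the 16 other UGT genes, 6 were tested and 5 of these had lower means with NeuroD-EGFP, beside 49.2% of all genes. None had an unadjusted p under 0.05 (limma), and the lowest were those of Ugt1a6b and Ugt1a7c. Ugt1a7c, of the Ugt1a locus, had 11.33, 10.74 and 9.75 with EGFP and 10.58, 10.20 and 9.83 with NeuroD-EGFP, which is a log2 fold change of -0.40 (SE 0.40) with all mice. Ugt1a6b, a phenol UGT, had 6.95, 5.58 and 6.25 against 5.90, 5.53 and 5.58, a log2 fold change of -0.59 (SE 0.33), of -0.24 without EGFP mouse 1 and of -0.59 (SE 0.38) without EGFP mouse 3. Without EGFP mouse 3, Ugt1a7c (-0.83), Ugt1a6a (-0.69) and Ugt1a10 (-0.52) were lower at an unadjusted p under 0.05 (limma), beside 6.71% of all genes; the last 2 are named after their values were seen. As for Ugt1a1, their probes may read the shared exons.

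Of the 17 other SULT genes, 3 were tested. Sult1c2, of the 1C group, had 5.85, 5.70 and 5.40 with EGFP and 5.07, 5.08 and 5.05 with NeuroD-EGFP. It was detected in every EGFP mouse and in no NeuroD-EGFP mouse, so that it passed the detection filter through the EGFP mice alone. With the faintest detected signal of each NeuroD-EGFP array as the floor, it was at least 1.14-fold lower with NeuroD-EGFP. No p-value is given for it, as this way through the filter favours a difference. Sult5a1 had a log2 fold change of -0.04 (SE 0.15), and of -0.08 (SE 0.16) without EGFP mouse 3. Of the 14 not tested, those with a probe were detected on 0 arrays, among them Sult1e1, the estrogen SULT, and Sult2a1, a bile acid and hydroxysteroid SULT.

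The supply of UDP-glucuronic acid was covered by 7 of 8 genes, with none at an unadjusted p under 0.05 (limma) and 5 of 7 with lower means, beside 49.2% of all genes. Ugdh, the dehydrogenase that makes UDP-glucuronic acid, had 7.09, 6.94 and 6.01 with EGFP and 6.18, 6.22 and 6.14 with NeuroD-EGFP. EGFP mice 1 and 2 were high and the other 4 mice lay together. The log2 fold change was -0.50 (SE 0.28, adjusted p = 0.917, limma), and without EGFP mouse 3 it was -0.83 (SE 0.14, unadjusted p = 0.000565, adjusted p = 0.122, limma). Slc35d2, a nucleotide sugar transporter, ranged from 7.88 to 8.32 with EGFP and from 7.51 to 7.85 with NeuroD-EGFP, without overlap. Its log2 fold change was -0.35 (SE 0.18, unadjusted p = 0.0846, limma), and -0.45 (SE 0.18, unadjusted p = 0.0406, adjusted p = 0.341, limma) without EGFP mouse 3.

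On the sulfate side, 10 of 11 genes for PAPS and sulfate were tested, with 1 higher and 1 lower at an unadjusted p under 0.05 (limma), beside 2.2% and 2.56% of all genes. Slc13a1, the apical sodium-sulfate cotransporter, had 9.66, 9.04 and 10.55 with EGFP and 7.69, 6.40 and 5.25 with NeuroD-EGFP, the last not detected. Its log2 fold change was -3.31 (SE 0.63, adjusted p = 0.762, limma), and -2.91 (SE 0.64) without EGFP mouse 3. The authors also measured Slc13a1 by qRT-PCR, and they name Slc40a1, Enpp7 and Mbl2, but not Slc13a1, as matching the array. Slc35b2, which carries PAPS into the Golgi rather than to the cytosolic SULTs, had 9.25, 9.22 and 9.46 against 9.65, 9.58 and 9.69, a log2 fold change of 0.33 (SE 0.14, adjusted p = 0.917, limma), and of 0.41 (SE 0.13) without EGFP mouse 3. The 2 PAPS synthases, named after their values were seen, had differences of opposite sign. Papss2 had 14.50, 14.45 and 11.47 with EGFP and 13.17, 12.13 and 11.59 with NeuroD-EGFP, which is a log2 fold change of -1.18 (SE 0.83) with all mice and of -2.18 (SE 0.42) without EGFP mouse 3. Papss1 had 9.52, 10.31 and 11.40 against 10.73, 11.08 and 11.35, a log2 fold change of 0.64 (SE 0.45) with all mice and of 1.14 (SE 0.28) without EGFP mouse 3. In each of them EGFP mouse 3 lay beyond the NeuroD-EGFP mice, and neither passed an adjusted p of 0.05 with or without that mouse (limma).

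All 8 tested genes of the list for conjugate export, which also holds the uptake transporter Slco2b1, had lower means with NeuroD-EGFP. Of all genes, 49.2% did, and the median log2 fold change of the 8 was -0.30. Abcc3, the basolateral exporter of glucuronides, had 9.47, 9.21 and 9.59 with EGFP and 9.13, 8.80 and 8.73 with NeuroD-EGFP, groups that did not overlap. Its log2 fold change was -0.54 (SE 0.18, unadjusted p = 0.0180, adjusted p = 0.917, limma). Abcc1, a related exporter of organic anions, had 6.08, 5.64 and 5.80 against 4.98, 5.50 and 5.44 and was detected in all 3 EGFP mice and in 1 NeuroD-EGFP mouse. Its log2 fold change was -0.54 (SE 0.20, unadjusted p = 0.0292, adjusted p = 0.917, limma). The EGFP mice alone would have carried Abcc1 through the detection filter, which favours a difference. Over the changes of processing its log2 fold change ran from -1.56 to -0.28. Without EGFP mouse 3, 5 of the 8 genes of that list had lower means, beside 48.3% of all genes. At an unadjusted p under 0.05 (limma) 3 were then lower, beside 6.71% of all genes, Abcc3 (-0.45), Abcc1 (-0.56) and Abcc2 (-0.54), and 1 was higher, beside 7.26%, Slc51b (0.52). Abcc2 and Slc51b are named after their values were seen.

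Enzymes that remove glucuronic acid or sulfate were read by 3 of 5 genes, of which none passed an unadjusted p of 0.05 (limma). Arsb, a lysosomal sulfatase of glycosaminoglycans, had a log2 fold change of -0.36 (SE 0.17) and Arsa, the lysosomal sulfatase of sulfatide, one of 0.29 (SE 0.25). Without EGFP mouse 3 they were -0.34 (SE 0.19) and 0.07 (SE 0.21). Gusb, the beta-glucuronidase, named after its values were seen, had a log2 fold change of -0.10 (SE 0.17), and of 0.03 (SE 0.14) without EGFP mouse 3. Sts, the steroid sulfatase, had no probe.

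**Figure D4:**
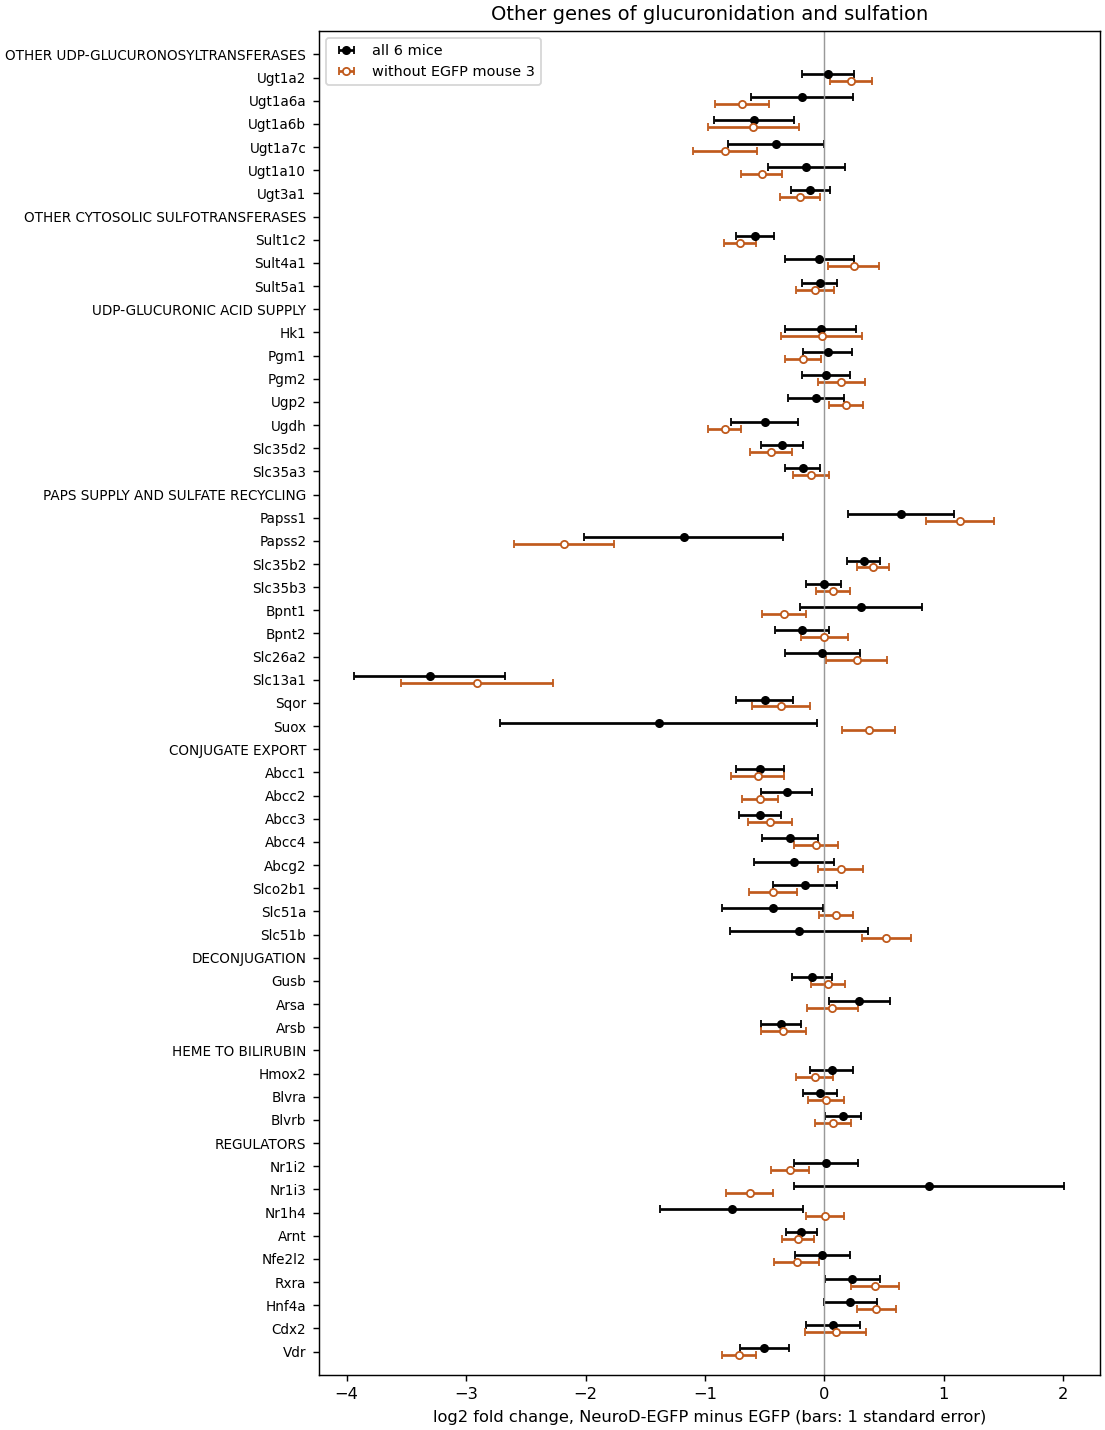
Log2 fold change, NeuroD-EGFP minus EGFP, with 1 standard error from limma, for tested genes of the other UGTs and SULTs, donor supply, export, deconjugation, bilirubin formation and regulators, with all 6 mice (filled) and without EGFP mouse 3 (open). Slc13a1 is lowest (-3.31), and all 8 genes of the export list, the uptake transporter Slco2b1 included, lie below 0 with all mice. Papss2 moves from -1.18 to -2.18 without EGFP mouse 3. The value of Sult1c2 depends on the offset, as it was not detected with NeuroD-EGFP.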

How the data were processed

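Each of 6 irradiated mice, 3 per protein, gave jejunum RNA for 1 array. Samples were grouped and numbered by the submitters' labels. The authors deposited background-subtracted intensities, 24.4% to 26.1% of which lie at or below 0, each with a detection p-value deposited beside it. They also deposited log2 values, equal to log2 of those intensities within 1.23e-06 where the signal is above 0, and 4 elsewhere. Neither table is scaled between arrays, and the scanner software was not given in the sources used here.

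For the tests, intensities were passed through neqc (limma 3.58.1, R 4.3.3), which models background with the detection p-values, adds an offset of 16, normalizes by quantiles and takes log2. Of 45281 probes, 19099 were detected on at least 3 of 6 arrays and tested with lmFit and eBayes, and p-values were adjusted over these probes (Benjamini-Hochberg). Of all probes, 34885 had 1 gene symbol, 18 several and 10378 none in the platform annotation, updated through RefSeq. The brightest tested probe stood for each of 10777 genes. The fits were tested on simulated data. As alternatives, each mouse was left out in turn, the detection filter, background step, offset, scaling and eBayes prior were changed, array weights or the replicate number as a block were added, a gene's probes were averaged, and the authors' log2 values and the methods' t-test were used. Neither labels nor headers tell which beadchip held an array, so beadchip was no block.

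The members and the gene lists were chosen with earlier results of these data known, so their counts and medians are descriptions. Named were the 10 genes with every probe, from each pathway list the 2 genes of lowest unadjusted p and any under 0.05, and the 5 genes closest to the tested gene of lowest p and to that of widest range, plus those said to be named after their values were seen. Promoter sequences were those of RefSeq (GRCm38.p6). Whether each replicate came from a separate litter or cage is not given, so p-values measure the spread between these mice.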

Additional observations from a re-analysis of the deposited data

How the results depend on the processing

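No UGT or SULT gene passed an adjusted p of 0.05 from limma under any alternative run, nor with the methods' t-test. The number of them lower at an unadjusted p under 0.05, 1 with all mice, was 0 without background modelling (floor of 16), 2 with an offset of 50, 2 with the authors' log2 values, 3 with no detection filter (Ugt2b5, detected nowhere, among them), 3 with array weights, 2 with a trend and robust prior, 0 with the methods' t-test and 0 to 4 with 1 mouse left out. With the replicate number as a block it was 0. The numbers share no stated litter or day, same-numbered mice correlated at 0.30, -0.09 and 0.16 in their deviations, and not every mouse correlated best with its own number. Over all genes, calls after adjustment were 0 to 14 higher and 0 to 2 lower with 1 mouse left out, the largest without EGFP mouse 3. At an unadjusted p under 0.05 the 237 higher and 276 lower genes became 782 and 723 without EGFP mouse 3, 585 and 438 without EGFP mouse 2, 569 and 496 with array weights, 525 and 599 with no filter, and 56 and 1172 with the authors' log2 values, which shift the median of all genes to -0.27. With the last, Sult1b1 turned to -0.25 and -0.19 in its probes, Sult2b1 to -0.063 and -0.24, Blvrb to -0.11 and Hmox2 to -0.20. With array weights, Sult1b1 turned to -0.12 and -0.056 and Hmox2 to -0.059. With 1 mouse left out, Ugt2a3 ran from -0.45 to 1.44, Ugt1a1 from -0.24 to 0.13, Sult1b1 from -0.29 to 0.25 and from -0.11 to 0.41, the second probe of Sult1d1 from -0.34 to 0.12, that of Sult2b1 from -0.045 to 0.12, Sult5a1 from -0.10 to 0.037, Hmox2 from -0.080 to 0.19, Ugt1a6a from -0.69 to 0.079, Ugt1a10 from -0.52 to 0.089, Nr1i3 from -0.62 to 1.66 and Nr1h4 from -1.18 to 0.0063. The cause of these turns was not tested. No other fold change of the genes refitted under every alternative turned sign. Cell type markers, Abcc2, Slc51b, Gusb and Hnf4a were refitted without EGFP mouse 3 only. Ugt2b5 and the second Ugt2a3 probe lay too close to background for a direction.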

Other observations

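Bilirubin, the substrate of Ugt1a1, comes from heme through heme oxygenases and biliverdin reductases, of which 3 of 4 genes were tested and none passed an unadjusted p of 0.05 from limma. Blvrb, a biliverdin reductase, had 9.56, 9.69 and 9.36 with EGFP and 9.84, 9.57 and 9.68 with NeuroD-EGFP, which is a log2 fold change of 0.16 (SE 0.15), 0.07 (SE 0.15) without EGFP mouse 3 and -0.11 in the authors' unscaled log2 values. Hmox2, the constitutive heme oxygenase, had one of 0.06 (SE 0.18), and of -0.08 (SE 0.15) without EGFP mouse 3, and the inducible Hmox1 was detected on no array. Heme breakdown genes thus overlapped between the groups.

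Among 12 regulators of UGT and SULT genes, 9 were tested. With all mice 5 had higher and 4 lower means with NeuroD-EGFP, beside 50.8% and 49.2% of all genes. Without EGFP mouse 3, 4 had higher and 5 lower means, beside 51.7% and 48.3%. At an unadjusted p under 0.05 (limma) 1 was then higher, Hnf4a, beside 7.26% of all genes. Those lower were 2, Vdr and Nr1i3, beside 6.71%. Vdr, the vitamin D receptor, had 11.81, 11.99 and 11.26 with EGFP and 11.14, 11.28 and 11.14 with NeuroD-EGFP. Its log2 fold change was -0.50 (SE 0.21, unadjusted p = 0.0468, adjusted p = 0.917, limma), and -0.72 (SE 0.14, unadjusted p = 0.00176, adjusted p = 0.146, limma) without EGFP mouse 3. Arnt, the partner of the aryl hydrocarbon receptor, had a log2 fold change of -0.19 (SE 0.13), and of -0.22 (SE 0.14) without EGFP mouse 3, with groups that did not overlap. Nr1i3, the nuclear receptor CAR, is named after its values were seen. It had 9.90, 10.03 and 5.47 with EGFP and 9.67, 9.24 and 9.12 with NeuroD-EGFP. Like Ugt2a3, it changed from a log2 fold change of 0.88 (SE 1.13) with all mice to -0.62 (SE 0.20, unadjusted p = 0.0167, adjusted p = 0.257, limma) without EGFP mouse 3. Nr1h4, the bile acid receptor FXR, also named after its values were seen, was highest in EGFP mouse 3, at 12.26 against 9.75 to 10.11 in the other mice. Hnf4a, named likewise, had a log2 fold change of 0.22 (SE 0.22) with all mice. Without EGFP mouse 3 it was 0.44 (SE 0.16, unadjusted p = 0.0330, adjusted p = 0.318, limma), with groups that did not overlap.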
